A study of Mus musculus with 8 samples.

Results

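The tricarboxylic acid (TCA) cycle and branched-chain amino acid (BCAA) catabolism were followed through 40 genes, chosen by symbol from the steps of these pathways, among the 41128 genes of the deposited table. Of these, 20 encode TCA cycle enzymes, or the cytosolic malate dehydrogenase and aspartate aminotransferases linked to them, and are called TCA cycle genes here. The other 20 encode the enzymes that break down leucine, isoleucine and valine or that regulate this route. RNA was measured in 8 left ventricles, 4 from wild-type mice and 4 from Nppb knockout littermates, all of strain FVB and 8 to 12 weeks old. The knockouts carried a CRISPR deletion in exon 2 of Nppb, the gene for the brain natriuretic peptide precursor, and the sample labels give no other allele or treatment for either group. No label explains the replicate numbers or gives the number of knockout lines. Whole ventricular tissue was sequenced, so fewer cells of a type and less RNA per cell cannot be told apart.

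The TCA cycle oxidises acetyl-CoA in the mitochondrial matrix and passes the electrons to the respiratory chain, on which heart muscle relies for nearly all of its ATP. BCAA catabolism starts with the removal of the amino group, continues with an irreversible oxidative decarboxylation by the branched-chain ketoacid dehydrogenase complex, and ends in acetyl-CoA and succinyl-CoA that enter the cycle. The ketoacid dehydrogenase is switched off by a dedicated kinase and on by a dedicated phosphatase.

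None of the 40 genes passed the test for a difference between knockout and wild-type ventricles. All 40 had a mean normalized count of at least 10, the level required for testing. Limma, which tests each gene with a variance moderated across all 16590 tested genes, called 0 of 40 at an adjusted p under 0.05, where 0.0121% of all tested genes were called. EdgeR and DESeq2 on recovered reads also called 0 of the 40. Over all 16590 tested genes, edgeR called 1 higher and 1 lower, and DESeq2 3 higher and 20 lower. At an unadjusted limma p under 0.05, 0 of 40 were lower and 0 were higher, against 3.29% and 2.98% of all tested genes. The knockout and wild-type ranges overlapped for all 40. Of all tested genes, 1.74% were lower and 2.03% higher in knockouts without overlap, and at these shares few of any 40 genes would be. The genes called by limma over the whole table were Nppb, lower, and its neighbour Nppa, which encodes the atrial natriuretic peptide precursor, higher, which is 0.00603% of tested genes in each direction. The smallest adjusted p among the 40 was 0.796, for Bckdk.

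The libraries held 20284865 to 34742840 reads assigned to genes. Nppb measured 1840 to 4619 normalized counts in wild type against 1.54 to 4.13 in knockouts, which matched the genotype labels in all 8 libraries. All 10 cardiomyocyte markers were detected in every sample, from 46482 counts or more for Myl3 to 1513240 or more for Ttn, and none was called. Of the 4 atrial markers, Myl7 and Sln stayed at or below 7.58 and 3.30 and read 0 in at least 1 sample each, and Myl4 read 21.3 to 47.3 in all 8. The fourth, Nppa, read 327 to 628 in wild type against 3603 to 3797 in knockouts. Transcripts of the mitochondrial genome took 15.6% to 17.9% of reads.

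Short upstream stretches of 4 members are shown because many nuclear genes for mitochondrial enzymes are targets of nuclear respiratory factor 1 (NRF1), a transcription factor that binds a GC-rich palindrome. Promoter sequence from RefSeq (GRCm38.p6, the build of mm10) spanned 250 bases before to 50 after each gene start and was matched for 36 of the 40, all but Idh3a, Sdhc, Dbt and Mut. The core CGCNTGCG, or CGCANGCG on the other strand, was found in 8 of the 36, which is 22.2%, against 9.22% of 27025 genes with a promoter in the table and 18.7% of the 9898 of them that were tested. The 8 were Dld, Hibadh, Idh3g, Ogdh, Pccb, Sdha, Sdhd and Sucla2, with log2 differences, knockout minus wild type, from -0.093 to 0.027. The element TCAAGGTCA (TGACCTTGA on the other strand) of the estrogen-related receptors, which drive genes of energy metabolism, occurred in 1 of the 36 (2.78%), Sdhd. It occurred in 0.466% of all genes with a promoter and in 0.354% of those that were tested. A match describes the letters and is not evidence of binding. The stretches shown are those that lie outside the annotated GENCODE span of the gene itself, and overlap with other genes was not checked. They read 5′ to 3′ on the gene's strand, which is the reverse strand for each, and carry the core in capitals.
Idh3g, chrX:73786941-73786988: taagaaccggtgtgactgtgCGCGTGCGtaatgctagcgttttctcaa
Pccb, chr9:101034925-101034972: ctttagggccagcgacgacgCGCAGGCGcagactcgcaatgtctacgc
Sdha, chr13:74350310-74350357: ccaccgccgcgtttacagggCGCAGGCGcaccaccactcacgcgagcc
Sdhd, chr9:50603900-50603947: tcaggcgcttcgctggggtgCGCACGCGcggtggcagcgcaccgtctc
In Idh3g the core shown lies 64 to 71 bases before the RefSeq start, in Pccb 61 to 68, in Sdha 90 to 97 and in Sdhd 71 to 78. The RefSeq start can differ from the GENCODE start. Pccb also held a core 27 to 34 bases before the RefSeq start, and Sdha held cores at 2 to 9 and 47 to 54. Their stretches reach into the GENCODE span and are not shown.

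TCA cycle genes were expressed several-fold above the BCAA genes. To compare genes, mean normalized counts over the 8 ventricles were divided by the length of the principal transcript in kb. On this length-scaled level the median was 4499 for the 20 TCA cycle genes and 539.8 for the 20 BCAA genes, a ratio of 8.33, or 8.22 when all annotated exonic bases were used as the length. The TCA cycle genes ran from 1048 for Suclg2 to 12971 for Mdh1, the cytosolic malate dehydrogenase. The BCAA genes ran from 12.4 for Bcat1 to 2059 for Bckdha. The order within each pathway depends on the transcript taken as the length.

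**Figure D1:**
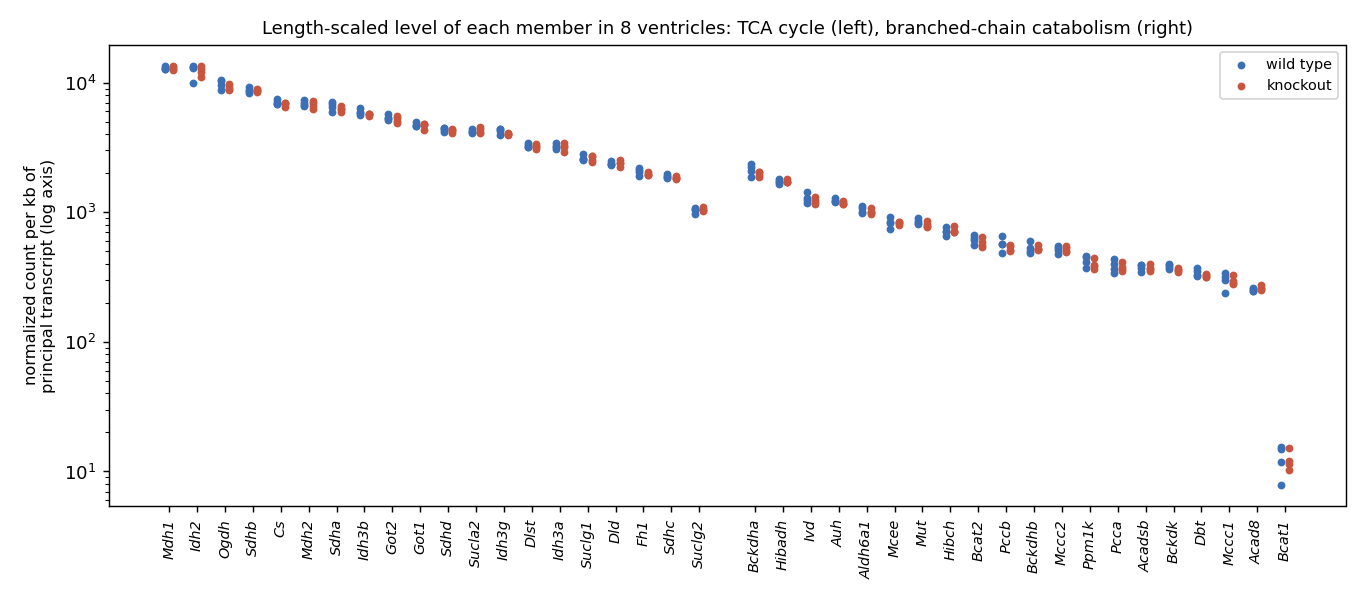
Normalized count per kb of principal transcript (log axis) for each of the 40 genes, with 1 point per ventricle, wild type in blue and knockout in red. Mean levels run from 12971 for Mdh1 to 1048 for Suclg2 among TCA cycle genes and from 2059 for Bckdha to 12.4 for Bcat1 among BCAA genes, and the colours overlap for every gene.

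Across the TCA cycle, 15 of 20 genes had an estimate below 0 (knockout under wild type on the log2 scale), where 49.1% of all tested genes lay below 0. The differences were small. Their median was -0.028 on the log2 scale, against 0.0023 over all tested genes, and the estimates ran from -0.088 for Ogdh to 0.030 for Suclg2. For 17 of the 20 the estimate was smaller than the gene's own standard deviation within groups. The 95% limma interval of all 20 lay inside a change of 1.2-fold in either direction, which bounds the difference gene by gene and does not show that the genotypes are equal. The median was -0.0044 without knockout replicate 3, -0.013 without wild-type replicate 3 and -0.049 without knockout replicate 1, and under quantile normalization it was -0.010.

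Citrate synthase and the isocitrate dehydrogenases bring acetyl-CoA into the cycle as citrate and release the first carbon dioxide. Cs, citrate synthase, measured 19962, 20075, 22096 and 20829.7 normalized counts in wild-type animals 1 to 4, against 20419, 20325, 18875 and 20067 in knockout animals 1 to 4. Its log2 difference, knockout minus wild type, was -0.058 (SE 0.045; limma adjusted p = 0.858). Wild-type replicate 3 was the highest and knockout replicate 3 the lowest, and the remaining 6 ventricles lay between 19962 and 20829.7. Idh3g, a regulatory subunit of the NAD-dependent isocitrate dehydrogenase, had the smallest unadjusted p of the TCA cycle genes. It measured 5607, 5268, 5899.9 and 5855 in wild type and 5449, 5282, 5390.4 and 5308 in knockouts (log2 difference -0.077, SE 0.044; limma adjusted p = 0.808). Wild-type replicate 2 read below all 4 knockouts while the other wild types read above them. Idh3b, the other regulatory subunit, showed 9405, 9149.7, 10263 and 9526 against 9321, 9225, 8926 and 9212 (log2 difference -0.063, SE 0.043; limma adjusted p = 0.832). For Idh3b, wild-type replicate 2 lay inside the knockout range. The catalytic subunit Idh3a had 7366, 7759.5, 8298 and 7697 in wild type and 8191, 7761, 6996 and 7721 in knockouts (log2 difference -0.022, SE 0.052; limma adjusted p = 0.969). Knockouts held both the lowest value of Idh3a and the second highest. Idh2, the NADP-dependent mitochondrial enzyme, varied most among the TCA cycle genes, with a standard deviation within groups of 0.17 on the log2 scale. Its counts were 23239, 17232, 23654 and 22522 in wild type and 23427, 22401, 21291 and 19496 in knockouts, with wild-type replicate 2 apart at the low end and a 95% interval of the log2 difference from -0.23 to 0.25. Per kb, Idh2 stood 3.86-fold above Idh3a, or 5.50-fold per exonic kb.

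The 2-oxoglutarate dehydrogenase complex, which releases the second carbon dioxide, is built from Ogdh, Dlst and Dld, and succinyl-CoA synthetase then makes ATP or GTP. Ogdh, the decarboxylating subunit, measured 39467, 36205, 43049 and 42276 in wild type and 40068, 36671, 36374 and 38133 in knockouts. The estimate was the most negative of the TCA cycle genes (log2 difference -0.088, SE 0.055; limma adjusted p = 0.814). Wild-type replicates 3 and 4 read above all knockouts, and wild-type replicate 2 below all of them. Dlst, the lipoate-carrying core, ranged over 8785 to 9463 in wild-type and 8538 to 9261 in knockout ventricles, a log2 difference of -0.025 (SE 0.042). Dld, the flavoprotein that this complex shares with the branched-chain ketoacid and pyruvate dehydrogenases, ranged over 5855 to 6303 and 5738 to 6461, a log2 difference of 0.014 (SE 0.045). The knockouts held the lowest and the highest Dld value. Sucla2, the subunit specific to the ATP-forming synthetase, had a log2 difference of 0.027 (SE 0.044). The value for Suclg2, its GTP-forming counterpart, was 0.030 (SE 0.045), and that for Suclg1, the subunit common to both enzymes, was -0.017 (SE 0.048). The log2 ratio of Sucla2 to Suclg2 counts had a mean of 1.43 (SD 0.071) over 4 wild types and 1.43 (SD 0.061) over 4 knockouts, with p = 0.971 by exact two-sided permutation (0.971 adjusted over 3 ratios).

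Succinate dehydrogenase is the enzyme of the cycle that is also complex II of the respiratory chain. Sdha, its flavoprotein, measured 18751, 17299, 20608 and 19723 in wild type and 19205, 18235, 17214 and 18103 in knockouts (log2 difference -0.068, SE 0.053; limma adjusted p = 0.858). Knockout replicate 3 and wild-type replicate 2 were the lowest ventricles and lay close together. The iron-sulphur subunit Sdhb ranged over 9479 to 10553 in wild-type and 9659 to 10248 in knockout ventricles, a log2 difference of 0.0052 (SE 0.043). Of the 40 genes, only Sdhb lies on chromosome 4 with Nppb, at 140961203 to 140979193 in mm10, 7.01 Mb away. The membrane anchors Sdhc and Sdhd had log2 differences of -0.041 (SE 0.041) and -0.028 (SE 0.042). Per kb, Sdhb stood 4.66-fold above Sdhc, or 2.44-fold per exonic kb.

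Fumarase and malate dehydrogenase close the cycle, and the malate dehydrogenases with the aspartate aminotransferases form the shuttle that carries reducing equivalents into mitochondria. All 5 of these genes had estimates below 0, from -0.061 for Fh1 to -0.0058 for Mdh1, and none passed. Mdh1 was above 0 under quantile normalization (0.030). Fh1, fumarase, measured 5398, 5049, 5754 and 5544 in wild type and 5425, 5191, 5140.0 and 5076 in knockouts (log2 difference -0.061, SE 0.046; limma adjusted p = 0.851). As for Ogdh and Idh3g, wild-type replicate 2 was the lowest ventricle. Mdh2, the mitochondrial malate dehydrogenase, read 9841, 9685, 10743 and 10161 against 10436, 9703, 9113 and 10080.1 (log2 difference -0.040, SE 0.049; limma adjusted p = 0.925). Wild-type replicate 3 was the highest ventricle and knockout replicate 3 the lowest, with knockout replicate 1 second. Mdh1, its cytosolic counterpart, ranged over 27055 to 28672 in wild-type and 26778 to 28328 in knockout ventricles and was the least variable TCA cycle gene, with a standard deviation within groups of 0.039 on the log2 scale. The log2 ratio of Mdh1 to Mdh2 had a mean of 1.45 (SD 0.031) over 4 wild types and 1.48 (SD 0.050) over 4 knockouts. The difference of 0.035 had an exact two-sided permutation p of 0.314, or 0.943 adjusted over 3 ratios, where 4 against 4 cannot go below 0.0286. Got1, the cytosolic aspartate aminotransferase, measured 9617, 10310.4, 9542 and 9638 in wild type and 9736, 9846, 8827 and 9969.7 in knockouts (log2 difference -0.028, SE 0.047; limma adjusted p = 0.950). Here wild-type replicate 2 was the highest ventricle, a place it held for 2 of the 20 TCA cycle genes. Got2, the mitochondrial form, had a log2 difference of -0.053 (SE 0.050), and its processed copy Got2-ps1 read 668 to 788 counts, so the split of reads between them is uncertain.

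**Figure D2:**
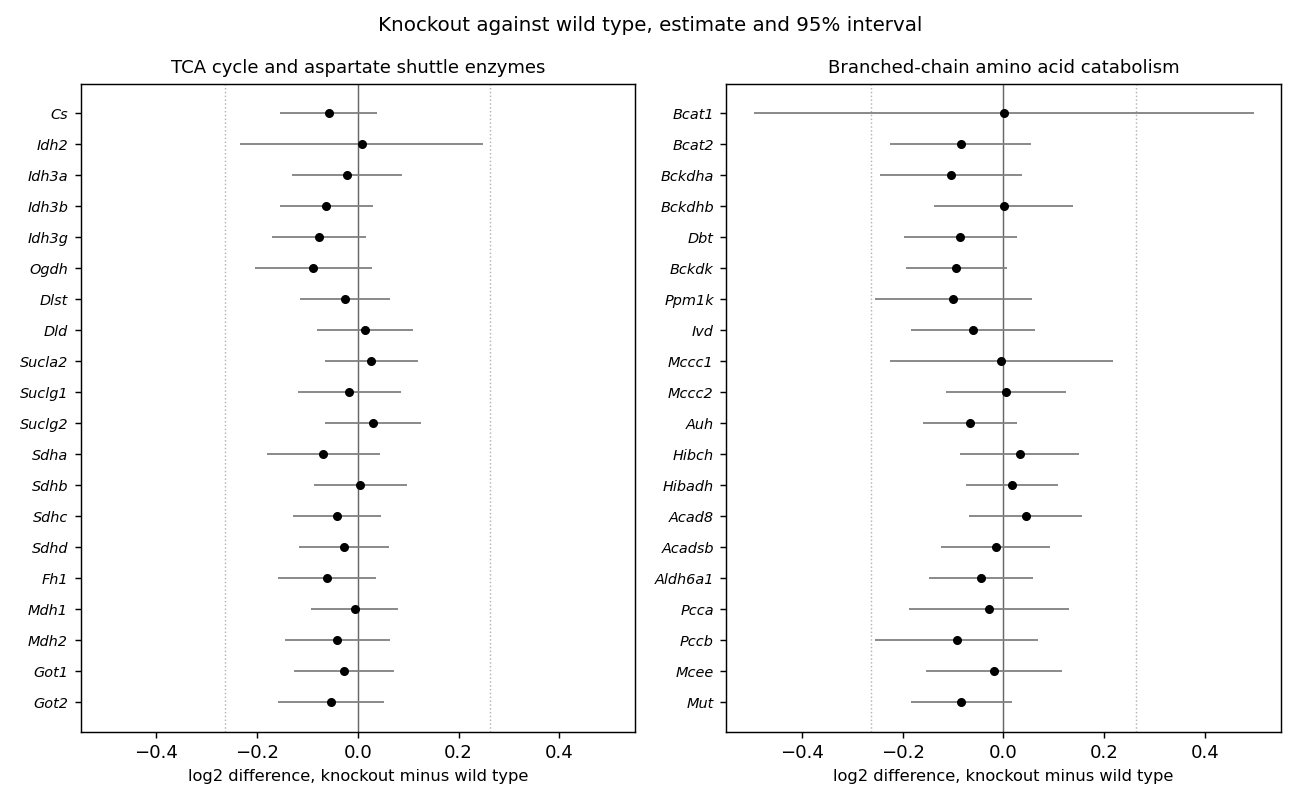
Log2 difference, knockout minus wild type, of each gene with its 95% limma interval (4 against 4 ventricles); the solid line marks 0 and the dotted lines a change of 1.2-fold. All 40 intervals cross 0, and the interval of Bcat1, from -0.50 to 0.50, is the one that reaches beyond the dotted lines.

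In BCAA catabolism, 14 of 20 genes had estimates below 0, against 49.1% of all tested genes, with a median log2 difference of -0.037 and a range from -0.10 for Bckdha to 0.044 for Acad8. For 16 of the 20 the estimate was smaller than the gene's own standard deviation within groups. The 95% interval of 19 lay inside 1.2-fold in either direction, and that of Bcat1 did not. The median was -0.015 without wild-type replicate 3, -0.072 without wild-type replicate 2 or 4, and -0.060 without knockout replicate 1, and it was -0.057 by edgeR and by DESeq2.

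The aminotransferases take the first, reversible step. Bcat2, the mitochondrial enzyme, measured 990.0, 1085, 1189.6 and 1122 normalized counts in wild type and 1149.8, 1045, 956 and 987 in knockouts (log2 difference -0.085, SE 0.066; limma adjusted p = 0.858). Its lowest and second highest values were both from knockouts. Bcat1, the cytosolic enzyme, read 38.1, 39.2, 19.96 and 30.3 in wild type and 30.5, 26.3, 38.8 and 29.3 in knockouts. Wild types held its highest and its lowest value, and the 95% interval of the log2 difference ran from -0.50 to 0.50. Per kb, Bcat2 stood 48.7-fold above Bcat1, or 80.7-fold per exonic kb.

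The branched-chain ketoacid dehydrogenase commits the carbon skeleton to oxidation. Bckdha, Bckdhb, Dbt and the regulators Bckdk and Ppm1k had a median of -0.094 on the log2 scale over 5 genes, the lowest among the roles. Averaged over the 5 genes and set against the wild-type mean of each, the knockout mean was -0.077. The SDs were 0.093 among wild types and 0.032 among knockouts. Wild-type replicate 2, at -0.11, lay below all 4 knockouts (-0.099 to -0.029), and the other wild types lay above them. The shared subunit Dld, with an estimate of 0.014, was counted with the TCA cycle and is not among the 5. Of the 5, 4 were below 0 (Bckdhb too under TMM or quantile scaling) and none passed. Bckdk, the kinase that phosphorylates and inactivates the complex (chromosome 7, 127904082 to 127910221 in mm10), had the smallest unadjusted p of the 40. It measured 1291, 1247, 1331 and 1352 in wild type and 1232, 1173, 1229 and 1258 in knockouts, with means of 1305 (SD 46.5) and 1223 (SD 35.9) over 4 ventricles each. The log2 difference was -0.094 (95% interval -0.19 to 0.0063; limma adjusted p = 0.796). Wild-type replicate 2 lay between the highest knockout and the other knockouts, and the other wild types lay above all knockouts. In the authors' deposited table Bckdk had a log2 fold change of 0.094, wild type over knockout, with an adjusted p of 0.608, the smallest of the 39 members with a value there. Ppm1k, the phosphatase that reactivates the complex (chromosome 6, 57506502 to 57535468), read 2526, 2058, 2541 and 2309.7 in wild type and 2453, 2143, 2038 and 2162 in knockouts (log2 difference -0.10, SE 0.072; limma adjusted p = 0.846). The lowest value was from a knockout and the lowest wild type, replicate 2, was next to it. The log2 ratio of Bckdk to Ppm1k had a mean of -0.85 (SD 0.12) over 4 wild types and -0.84 (SD 0.12) over 4 knockouts, a difference of 0.0060 with an exact two-sided permutation p of 0.971 (0.971 adjusted over 3 ratios).

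Among the catalytic subunits, Bckdha, which forms the decarboxylase with Bckdhb, had the most negative estimate of the 40 (chromosome 7, 25629946 to 25658981). Its counts were 3962, 3526, 4495 and 4251 in wild type and 3916, 3712, 3894 and 3530.1 in knockouts (log2 difference -0.10, SE 0.066; limma adjusted p = 0.816). Its exons overlap those of B3gnt8 on the opposite strand. Wild-type replicate 2 was the lowest of the 8 ventricles, and without it the estimate was -0.17 with a limma adjusted p of 0.423, the smallest reached by any of the 40 under any alternative. Without wild-type replicate 3, the highest, the estimate was -0.053 with a limma adjusted p of 0.937. Bckdhb, the partner subunit, showed 786, 710.3, 878 and 746 in wild type and 763, 831, 759 and 760.3 in knockouts (log2 difference 0.00014, SE 0.065; limma adjusted p = 0.9999). Wild types held its highest and lowest values, and knockout replicate 2 stood above the other knockouts. Per kb, Bckdha stood 3.89-fold above Bckdhb, or 4.77-fold per exonic kb. Dbt, the transacylase core, measured 1066, 1158, 1225 and 1087 in wild type and 1095, 1042, 1044 and 1087 in knockouts (log2 difference -0.086, SE 0.053; limma adjusted p = 0.814). Wild-type replicates 2 and 3 were above all knockouts and wild-type replicates 1 and 4 were within the knockout range.

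**Figure D3:**
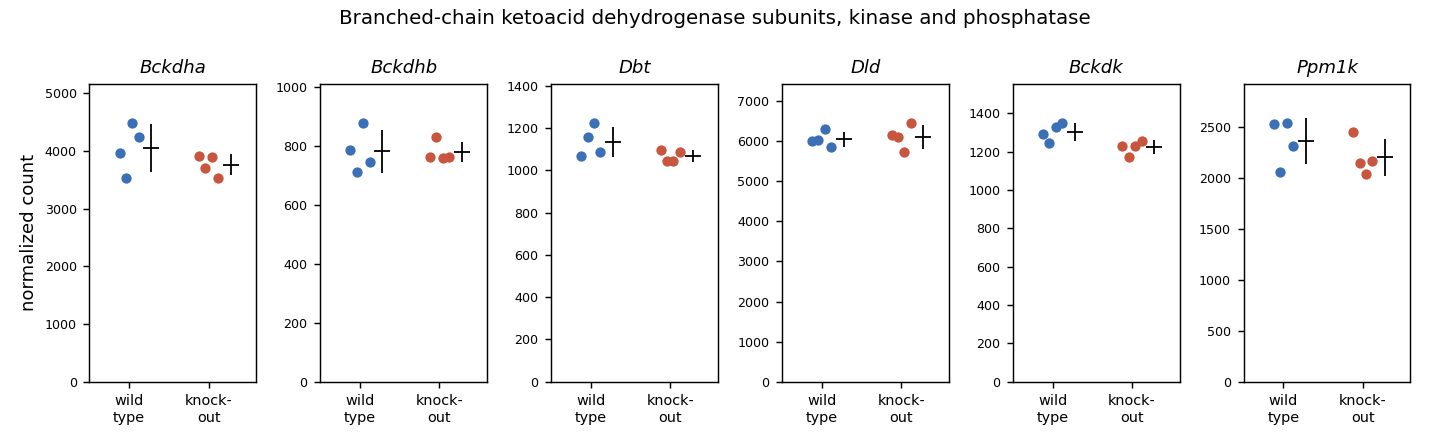
Normalized counts of the branched-chain ketoacid dehydrogenase subunits Bckdha, Bckdhb, Dbt and Dld, the kinase Bckdk and the phosphatase Ppm1k, 1 point per ventricle, with the mean and SD (n = 4) of each group and axes from 0. Groups overlap in each panel; for Bckdk the wild-type mean is 1305 and the knockout mean 1223.

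The leucine arm ends in acetyl-CoA and acetoacetate. Auh, the methylglutaconyl-CoA hydratase, had the smallest unadjusted p of this arm and measured 1698, 1623, 1606 and 1592 in wild type and 1550.1, 1539.6, 1523 and 1612 in knockouts (log2 difference -0.066, SE 0.044; limma adjusted p = 0.821). Knockout replicate 4 lay within the wild-type range and the other knockouts below it. Mccc1, the biotin-bearing subunit of methylcrotonyl-CoA carboxylase, read 734, 585, 838 and 784 in wild type and 808, 724, 682 and 698 in knockouts (log2 difference -0.0044, SE 0.10; limma adjusted p = 0.999). Wild-type ventricles held both its lowest and its highest value. Its partner subunit Mccc2 had a log2 difference of 0.0048 (SE 0.056). Ivd, isovaleryl-CoA dehydrogenase, ranged over 4297 to 5256 in wild-type and 4268 to 4838 in knockout ventricles, a log2 difference of -0.061 (SE 0.058).

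The valine and isoleucine arms had the highest median of the roles, 0.016 on the log2 scale, with 3 of 5 estimates above 0. Acad8, isobutyryl-CoA dehydrogenase of the valine arm, had the highest estimate of the 40, 0.044 (SE 0.053), with 707 to 744 counts in wild-type and 717 to 791 in knockout ventricles. The estimate for Hibch, the hydrolase that releases hydroxyisobutyrate, was 0.032 (SE 0.056), and that for Hibadh, the dehydrogenase that follows it, was 0.016 (SE 0.043). Acadsb, the short branched-chain dehydrogenase of the isoleucine arm, had an estimate of -0.015 (SE 0.051). Aldh6a1, methylmalonate-semialdehyde dehydrogenase, ranged over 3374 to 3831 in wild-type and 3327 to 3657 in knockout ventricles, with an estimate of -0.045 (SE 0.049). None of the 5 reached an unadjusted p under 0.05.

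The last steps turn propionyl-CoA from valine and isoleucine into succinyl-CoA for the TCA cycle, and all 4 genes had estimates below 0, with a median of -0.057, and none passed. Mut, methylmalonyl-CoA mutase, came after Bckdk in the order of unadjusted p among the BCAA genes. It measured 3173, 3057, 3321 and 2999 in wild type and 3151, 2968, 2836 and 2889 in knockouts (log2 difference -0.084, SE 0.047; limma adjusted p = 0.808). Knockout replicates 2 to 4 lay below every wild-type ventricle and knockout replicate 1 did not. The propionyl-CoA carboxylase subunits Pcca and Pccb had log2 differences of -0.029 (SE 0.074) and -0.093 (SE 0.075), and Mcee, the epimerase between carboxylase and mutase, -0.018 (SE 0.064). Pccb ranged over 1132 to 1524 in wild-type and 1174 to 1305 in knockout ventricles, so the knockout range lay wholly within that of wild type.

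The level of the whole pathway also varied between ventricles of one genotype. Averaged over the 20 TCA cycle genes and set against the wild-type mean of each gene, the log2 deviation was -0.015, -0.060, 0.075 and -0.00025 for the wild types in order and 0.024, -0.029, -0.082 and -0.030 for the knockouts. The knockout mean of -0.030 compares with SDs of 0.056 among wild types and 0.043 among knockouts. Wild-type replicate 3 held the highest value for 15 of the 20 genes, knockout replicate 3 the lowest for 12 and wild-type replicate 2 the lowest for 6. For the 20 BCAA genes the deviation was 0.0076, -0.047, 0.059 and -0.019 for the wild types and 0.015, -0.058, -0.063 and -0.052 for the knockouts, with a knockout mean of -0.039 and SDs of 0.045 among wild types and 0.037 among knockouts. Knockouts 2 to 4 lay below every wild type and knockout 1 did not. There wild-type replicate 3 was highest for 11 of 20 and wild-type replicate 2 lowest for 7. The mitochondrial genome took 17.9% of reads in wild-type replicate 3, the highest share, and 15.6% in both wild-type replicate 2 and knockout replicate 3, the lowest. The 10 cardiomyocyte markers summed to 2900030 to 3092430 over wild types and 2757790 to 3044820 over knockouts, highest in wild-type replicate 3 and lowest in knockout replicate 3. The 8 fibroblast markers summed to 21755 to 27311 over wild types, highest in replicate 2, and to 23666 to 24494 over knockouts. Endothelial markers (8 of 8 found) summed to 19286 to 21077 over wild types and 18837 to 21379 over knockouts. Smooth muscle and pericyte markers (8 of 8) summed to 31348.5 to 32418 and 32078 to 33329.7, and macrophage markers (7 of 8) to 3159 to 4194 and 3689 to 4077. Adipocyte markers (8 of 8, of which Plin1, Cidec, Lep, Retn and Ucp1 read 0 in at least 1 sample) summed to 12707 to 16464 and 10465 to 13885, of which Plin4 gave 10451.5 or more in every sample. Erythroid markers (3 of 7 found) summed to 371 to 557 and 393 to 551, and no gene of these lists was called. The part of these features in the pathway levels was not tested.

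**Figure D4:**
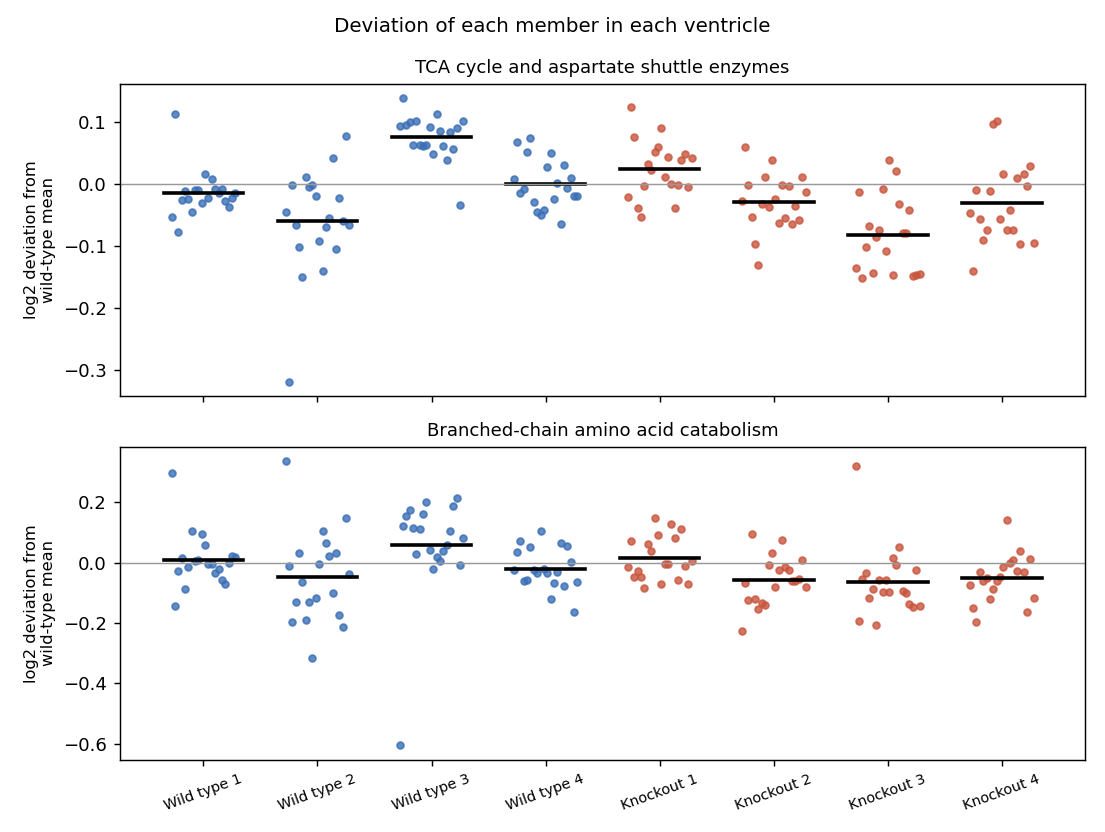
Log2 deviation of each gene from its wild-type mean in each ventricle (points, 20 genes per pathway) with the mean over genes (bars). The TCA cycle mean is highest in wild-type replicate 3 (0.075) and lowest in knockout replicate 3 (-0.082) and the genotypes interleave, while for BCAA catabolism 3 of 4 knockout means lie below every wild-type mean.

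The median spread within groups was 0.060 on the log2 scale for the TCA cycle genes and 0.089 for the BCAA genes, against 0.14 over all tested genes. For 18 of the 20 BCAA genes and 12 of the 20 TCA cycle genes the SD of counts was smaller in knockouts than in wild type, against 52.6% of all tested genes. These genes share the same 8 ventricles, so the counts describe those animals.

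No gene bordering the pathways was called either. Of 35 genes linked to the TCA cycle, 33 were found under their symbols and tested, and limma, edgeR and DESeq2 each called 0. At an unadjusted limma p under 0.05, 2 (6.06%) were lower and 0 higher, against 3.29% and 2.98% of all tested genes. The median log2 difference of the 33 was -0.040, against 0.0023 over all tested genes. D2hgdh, which oxidises D-2-hydroxyglutarate to 2-oxoglutarate, measured 641, 551, 651 and 624 in wild type and 551, 501, 573 and 493 in knockouts (log2 difference -0.22, SE 0.069; limma adjusted p = 0.664). Wild-type replicate 2 lay inside the knockout range and the other wild types above it. Sirt3, a mitochondrial deacetylase, had a log2 difference of -0.13 (SE 0.061; limma adjusted p = 0.796). Acly, which cleaves exported citrate, had 0.11 (SE 0.054; limma adjusted p = 0.796). Of 29 genes linked to BCAA catabolism 28 were tested, all but Agxt2, and 0 were called by limma, edgeR or DESeq2. In this list 2 (7.14%) were lower and 1 (3.57%) higher at an unadjusted limma p under 0.05, against the same 3.29% and 2.98%. The median log2 difference of the 28 was -0.027. Hadha, a subunit of the trifunctional protein of fatty acid oxidation, had a log2 difference of -0.12 (SE 0.047; limma adjusted p = 0.753). Hmgcs1, the cytosolic synthase of sterol production, had 0.15 (SE 0.068; limma adjusted p = 0.771).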

How the data were processed

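Total RNA from each of 8 left ventricles (900 ng) went into a stranded library kit and 125 bp paired-end sequencing, per the labels' protocols. The authors deposited size-factor normalized counts, a signal of 0 or more for each gene and sample, and a table of their own comparison with log2 fold changes and p-values, per the file headers. STAR, DESeq2 and mm10 are named in the submitters' processing notes. Annotation, read counter and its use of strand: not given in the sources used here. This matters for the 10 members whose exons overlap a gene on the opposite strand (Idh3b, Mdh1, Got2, Bcat1, Bcat2, Bckdha, Mccc1, Aldh6a1, Pcca and Mut). The protocol text also names Cre and reporter lines, which the sample labels do not assign to these animals. All values (100%) were whole multiples, within 0.01, of the value of 1 read in their sample, so reads were recovered.

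The main test was limma 3.58.1 (R 4.3.3; trended, robust moderation) on log2(normalized count + 1) for genes with a mean of at least 10, with Benjamini-Hochberg adjustment over all of them and a threshold of 0.05. This scale understates changes of low genes. The 3 ratios used exact permutation over 70 assignments. Coordinates and lengths came from GENCODE M21 (mm10). P-values rest on the spread among these 8 samples alone. The members, lists and tests were chosen with earlier results of these data known. Values in every sample are given for the 5 genes of smallest p in each pathway and for 14 fixed members, and linked genes are named for the 3 smallest p in each list, except 1 that is not reported here; the sample values of Idh2, Bcat1 and D2hgdh were added after they were seen. No replicates were copies (smallest chi-square per degree of freedom 4.52). Other settings tried were a pseudocount of 0.5 or 5, no low-value filter or one at a mean of 50, TMM or quantile scaling, plain moderation, sample weights, DESeq2 1.42.0 or edgeR 4.0.16 on the recovered reads, a replicate block, and leaving out each sample.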

Additional observations from a re-analysis of the deposited data

Results flagged for a closer look

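In 4 of 86 groups of 4 ventricles, 1 ventricle was set apart: most of the group's range, past Dixon's 95% value, lay between it and its nearest neighbour. Chance gives about 1 in 20. Suclg1 was highest in wild-type replicate 3, at 4259 normalized counts against 3882 to 3946 (0.830 of the range). Got1 was highest in wild-type replicate 2, at 10310.4 against 9542 to 9638 (0.874). Bckdhb was highest in knockout replicate 2, at 831 against 759 to 763 (0.952). Hibadh was also highest in knockout replicate 2, at 3319 against 3138 to 3152 (0.926).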

How the results depend on the processing

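Under all 19 alternatives 0 of the 40 genes and 0 of the linked genes were called. The pathway medians were below 0 under each, from -0.049 to -0.0044 for the TCA cycle and from -0.072 to -0.015 for BCAA catabolism. Over the whole table limma called 1 gene higher and 1 lower. DESeq2 called 3 and 20, and the replicate block 0 and 3. No filter on low values gave 4 lower and array weights 3 lower. Leaving out a sample gave 0 to 2 higher and 1 to 4 lower: 2 and 4 without wild-type replicate 2, 0 and 4 without knockout replicate 4, and 0 and 1 without each other sample. Same-numbered samples did not deviate together (correlations -0.069 to 0.026), so the numbers were not treated as pairs, and the replicate block changed no call among the 40 genes.

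Uncalled estimates changed sign for 18 of the 40 genes, and the cause was not tested. The main estimates of the 18 ran from -0.058 for Cs to 0.032 for Hibch. Quantile normalization gave Cs 0.0084, Mdh1 0.030 and Bckdhb -0.0083. Array weights gave Idh2 -0.0061, Bcat1 -0.051 and Mccc2 -0.0095. EdgeR gave Idh2 -0.0036, Bcat1 -0.075 and Bckdhb -0.0027, and DESeq2 gave Idh2 -0.0039, Bcat1 -0.067 and Bckdhb -0.0025. TMM factors gave Bcat1 -0.0021 and Bckdhb -0.0031, and a pseudocount of 5 gave Bcat1 -0.0029. Leaving out 1 sample spanned -0.099 to 0.057 for Idh2, -0.055 to 0.021 for Idh3a, -0.014 to 0.044 for Dld, -0.042 to 0.014 for Suclg1, -0.00075 to 0.048 for Suclg2, -0.018 to 0.034 for Sdhb, -0.021 to 0.013 for Mdh1, -0.047 to 0.011 for Got1 and -0.20 to 0.11 for Bcat1. It spanned -0.043 to 0.059 for Bckdhb, -0.11 to 0.063 for Mccc1, -0.034 to 0.037 for Mccc2, -0.0076 to 0.067 for Hibch, -0.0062 to 0.038 for Hibadh, -0.049 to 0.011 for Acadsb, -0.087 to 0.033 for Pcca and -0.072 to 0.031 for Mcee. The differences in log2 ratio spanned -0.034 to 0.056 for Bckdk to Ppm1k and -0.033 to 0.027 for Sucla2 to Suclg2. Bcat1, whose interval was the widest of the 40, was not tested at a mean of at least 50.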
